A study of Mus musculus with 3 samples.

Results

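Neurosteroids are steroids that brain cells make or remodel locally, and several of them act on GABA type A receptors or on nuclear steroid receptors. Cholesterol is moved to the inner mitochondrial membrane, a transfer in which StAR takes part and to which TSPO has been linked, and the side-chain cleavage enzyme CYP11A1 turns it into pregnenolone. Progesterone made from it is reduced by 5α-reductase and then by a 3α-hydroxysteroid dehydrogenase to allopregnanolone, a positive modulator of GABA type A receptors. Aromatase makes estrogens from androgens, and 17β-hydroxysteroid dehydrogenases interconvert active and less active steroids, although HSD17B4 and HSD17B10 also serve fatty acid and amino acid breakdown. This set of enzymes was taken by gene symbol: Tspo, Star, Cyp11a1, Srd5a1, Akr1c14, Cyp19a1, Hsd17b4 and Hsd17b10, 8 of the 32285 genes listed.

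The cells came from the mouse medial prefrontal cortex (mPFC), split into 3 droplet single-cell libraries: the estrus library pooled 2 females, the diestrus library 2 females and the male library 2 males. The labels give no strain, age, genotype or treatment for the mice. The labels call the cells total mPFC neurons, but the protocol describes no step that selects neurons, and most cells carried glial or vascular markers. In the order estrus, diestrus and male, 12981, 14855 and 16344 barcodes passed the filters, at medians of 6337, 4806 and 4023.5 unique molecular identifiers (UMIs, 1 per captured transcript). Marker genes placed 11894, 11409 and 12713 of them in a type, and 10 types had at least 50 cells in every library. Of the 33 markers kept out of the gate, 32 were highest in their own type among the 10; the exception was Nxph1, a GABAergic marker that was highest in oligodendrocyte precursor cells. Pairs of libraries shared between 68 and 97 cell barcodes. In graph clusters of all cells, estrus endothelial cells and microglia sat apart: 82.1% of the gated estrus endothelial cells were in a cluster that held 1.55% of the diestrus and 0.103% of the male ones, and 66.3% and 24.6% of estrus microglia were in clusters that held at most 2.01% of the microglia of another library. Most diestrus and male endothelial cells (52.8% and 51.0%) lay in different clusters from each other, and the largest glutamatergic cluster of estrus (38.8% of its cells) was not that of diestrus and male. In the other 7 types 1 cluster was the largest in all 3 libraries. Glutamatergic neurons differed most in depth among the neurons, with medians of 38477, 24116 and 11032 UMIs per cell in estrus, diestrus and male.

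Levels are given in CPM, the UMIs of a gene scaled to a total of 1000000 nuclear-gene UMIs in that type and library, always in the order estrus, diestrus and male. Types were compared over the 3 libraries with edgeR's quasi-likelihood test on summed UMIs, each type against the unweighted mean of the other 9 on the log2 scale, with the Benjamini-Hochberg adjusted p taken over 17379 genes and all 10 types. Since the 3 libraries differ in cycle stage and sex, the spread between them holds both those differences and the spread between pools of mice. In CPM, fewer transcripts per cell and a larger total of other transcripts cannot be told apart. Cyp19a1 did not pass the filter on low counts, and the other 7 members were tested.

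Of these 70 pairs of member and type, 18 were higher and 14 lower than the mean of the other types. In endothelial cells 2 of 7 members were higher, where 30.2% of all genes were, and 1 was lower, where 21.2% were. In oligodendrocytes 3 were higher (31.1% of all genes) and 1 lower (23.2%), and in oligodendrocyte precursor cells 1 was higher (24.6%) and 2 lower (22.8%). In glutamatergic neurons 2 were higher (36.4%) and 3 lower (28.8%). In GABAergic neurons none was higher (29.9%) with edgeR or DESeq2, 1 was higher at an unadjusted p under 0.05, and 3 were lower (30.6%). In microglia 2 were higher (32.4%) and 2 lower (26.5%), and in astrocytes 2 were higher (33.2%) and 1 lower (24%). Vascular smooth muscle cells had 3 higher (21.1%) and 1 lower (18.3%). Border macrophages had 1 higher (17.7%) and 0 lower (15.1%) with edgeR, with DESeq2 and at an unadjusted p under 0.05. Pericytes had 2 higher (18.1%) and 0 lower (17.1%), with 2 lower at an unadjusted p under 0.05 and 1 lower with DESeq2. With 7 members a type, these counts are not read further, and each member is described by the types in which it was high.

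Tspo encodes the translocator protein of the outer mitochondrial membrane, whose ligands are used to image glial activation, and lies at chr15:83563592-83574203 on the plus strand of mm10, where it overlaps Mcat on the other strand. Its level in endothelial cells was 376, 314 and 401 CPM (364 ± 44.7, SD, n = 3). Vascular smooth muscle cells stood at 182, 155 and 159 CPM, border macrophages at 142, 175 and 204, and pericytes at 151, 135 and 145. All 3 endothelial values lay above every value of the other 9 types. Endothelial cells held 73.5% of the Tspo UMIs of the 10 types. Microglia, the cells for which the protein is best known as an imaging target, stood at 60.1, 46.7 and 64.1 CPM, and astrocytes at 29.2, 27.6 and 28.6 CPM. Neurons were low, at 3.48, 2.75 and 3.24 CPM in the glutamatergic and 4.28, 2.56 and 3.99 CPM in the GABAergic class. In the order of mean levels, border macrophages and vascular smooth muscle cells overlapped, as did oligodendrocytes with their precursors, the precursors with GABAergic neurons, and the 2 neuron classes with each other. The neighbouring pairs from vascular smooth muscle cells to pericytes, microglia, astrocytes and oligodendrocytes did not overlap.

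The endothelial level was higher than the mean of the other types by 3.95 on the log2 scale (SE 0.08, adjusted p = 1.07e-24, edgeR), higher in 3 of 3 libraries. Border macrophages were higher by 2.76 (SE 0.15), vascular smooth muscle cells by 2.68 (SE 0.11), pericytes by 2.16 (SE 0.11) and microglia by 0.95 (SE 0.10). Both neuron classes, oligodendrocytes and their precursors were lower, the glutamatergic class by -3.83 (SE 0.15). For astrocytes the difference was -0.19 (SE 0.12, adjusted p = 0.20, edgeR). Glutamatergic and GABAergic neurons differed by -0.02 (SE 0.22, adjusted p = 0.96, edgeR). The 4 endothelial markers kept out of the gate summed to 0.846% of their endothelial level in GABAergic neurons and 0.558% in glutamatergic neurons, with single markers at up to 1.58% and 1.66%, and Tspo stood at 0.989% and 0.876% of its own. In border macrophages the same markers summed to 0.481% and Tspo stood at 46.1%. Cells with gate markers of a second type were left out, so low levels of another type's markers are in part set by the gate, and the part of RNA from other cells in these levels was not tested.

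**Figure D1:**
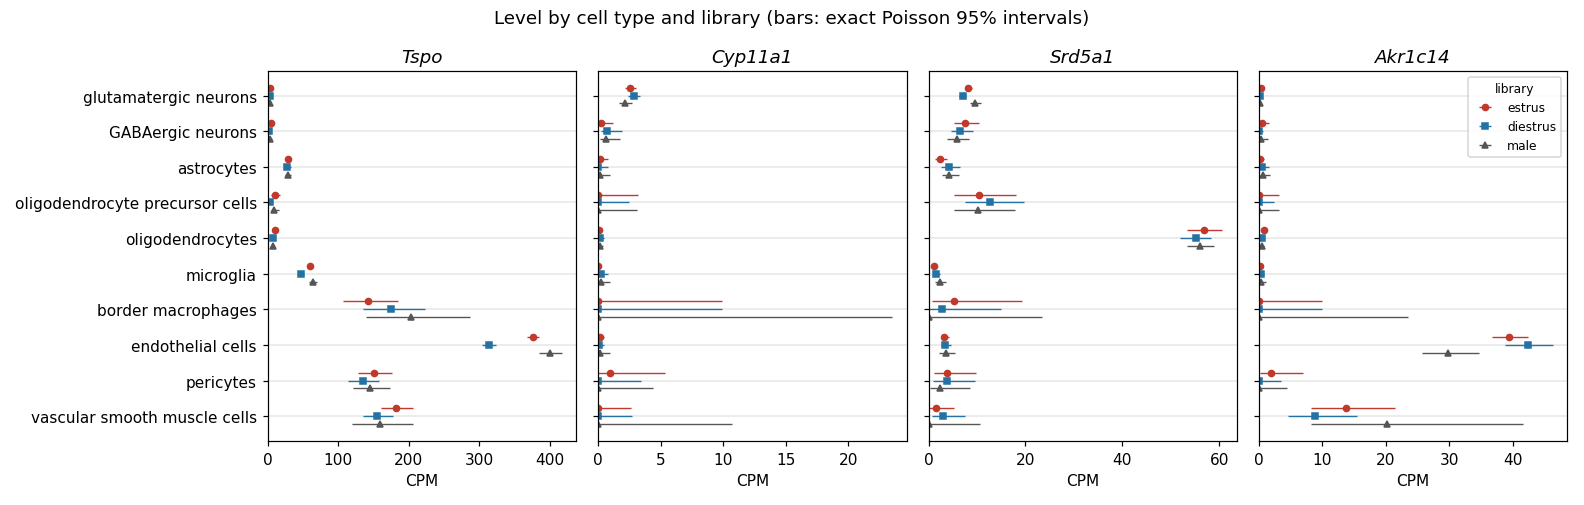
Level (CPM, linear axis) of Tspo, Cyp11a1, Srd5a1 and Akr1c14 in 10 cell types, with 1 symbol for each library and exact Poisson 95% intervals that cover counting error only. Endothelial Tspo lies between 314 and 401 CPM, oligodendrocyte Srd5a1 between 55.1 and 56.8 CPM, and the wide bars belong to types with few UMIs.

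A share of cells with a UMI moves with depth. At least 1 Tspo UMI was found in 73.0% of endothelial cells in estrus (Clopper-Pearson 95% interval 71.4 to 74.6), 58.0% in diestrus (56.0 to 59.9) and 51.1% in male (48.9 to 53.3), at median depths of 4765, 3713 and 2241 UMIs. With every cell thinned to 2000 UMIs, and 263, 502 and 830 shallower cells left out, the expected shares were 46.3%, 42.0% and 47.7%, and the male share was then the highest of the 3. Glutamatergic neurons thinned in the same way had 0.716%, 0.702% and 0.849%.

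Endothelial cells were not uniform in Tspo. Cells were grouped by detecting at least 2 of 3 arterial genes (Gkn3, Bmx, Sema3g), at least 2 of 4 venous genes (Vwf, Slc38a5, Lcn2, Nr2f2) or, outside those groups, at least 2 of 4 capillary genes (Mfsd2a, Tfrc, Slc16a1, Rgcc); the groups were chosen after the values were seen and carry no test. Arterial-gene cells held Tspo at 677, 564 and 711 CPM. Capillary-gene cells held 290, 242 and 321 CPM, and venous-gene cells 291, 238 and 311 CPM. The remaining endothelial cells held 537, 311 and 373 CPM, at medians of 2435.5, 1559 and 1522 UMIs. These cells met none of the rules, or met both the arterial and the venous rule. The arterial level was 2.34, 2.33 and 2.21 times the capillary level in estrus, diestrus and male. Arterial-gene and venous-gene cells had similar depth, with medians of 8960, 6963 and 4858 UMIs in the arterial-gene and 9156, 6901 and 3731 UMIs in the venous-gene cells. Capillary-gene cells were shallower, with medians of 4226, 3720 and 2387.5 UMIs, and the part of depth in the difference from them was not tested.

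**Figure D2:**
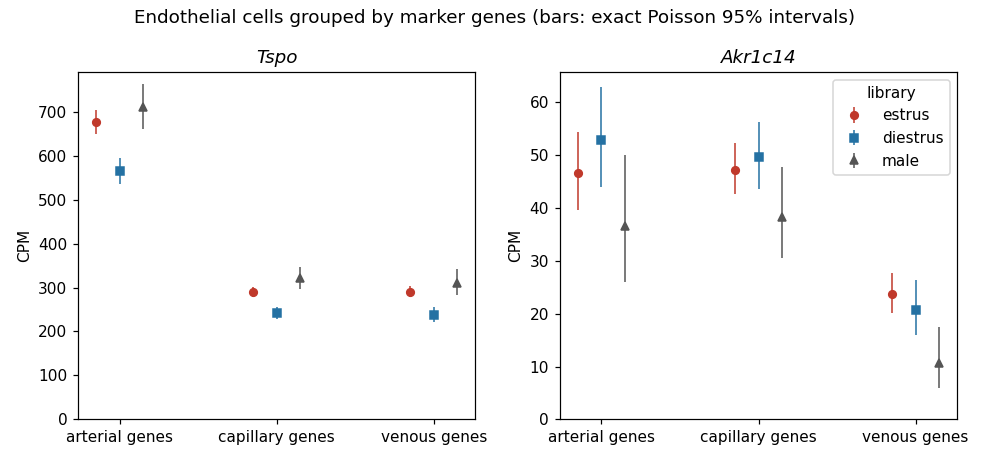
Tspo and Akr1c14 (CPM, axes from 0) in endothelial cells that carry arterial, capillary or venous genes, by library, with exact Poisson 95% intervals. Tspo is high in the arterial-gene cells (564 to 711 CPM) and Akr1c14 is low in the venous-gene cells (10.7 to 23.7 CPM).

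Star, whose product carries cholesterol into mitochondria and is the acutely regulated step in adrenal and gonad, was low everywhere. It lies at chr8:25806555-25815982 on the plus strand and overlaps no other annotated gene. The 10 types together held 868 UMIs of it. Mean levels ran from 5.03 ± 0.99 CPM (SD, n = 3) in oligodendrocyte precursor cells to 1.47 ± 1.48 CPM in vascular smooth muscle cells, and each type overlapped its neighbour in that order. Glutamatergic neurons stood at 2.01, 2.07 and 3.18 CPM and oligodendrocytes at 2.70, 3.53 and 3.58 CPM. None of the 10 types was called with edgeR, none had an unadjusted p under 0.05, and DESeq2 called 1, microglia, as lower (-0.60, adjusted p = 0.037). Without the estrus library oligodendrocytes were called higher by 1.35 (SE 0.49, adjusted p = 0.024, edgeR), against 0.42 (SE 0.22, adjusted p = 0.11, edgeR) with it.

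Cyp11a1 encodes the side-chain cleavage enzyme that makes pregnenolone, the first steroid of the pathway. It lies at chr9:58006411-58027023 on the plus strand. Of its 408 UMIs in the 10 types, 377 (92.4%) were in glutamatergic neurons. The glutamatergic level was 2.55, 2.84 and 2.15 CPM (151, 155 and 71 UMIs). GABAergic neurons stood at 0.214, 0.731 and 0.599 CPM, from 1, 4 and 3 UMIs. Oligodendrocyte precursor cells, border macrophages and vascular smooth muscle cells had no UMI, which allows up to 0.781, 3.32 and 0.973 CPM over the 3 libraries. The 3 glutamatergic values lay above every value of the other types, whose highest was 1 UMI in estrus pericytes (0.962 CPM).

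Glutamatergic neurons were above the mean of the other types in 3 of 3 libraries (adjusted p = 7.08e-09, edgeR). The fitted difference rests in part on types with no UMI and is not given. Cyp11a1 passed the filter on low counts through its glutamatergic levels alone, as no other level was above 0.962 CPM. The call was thus in part set by the filter and is not read as support. Against the 9 other types pooled the glutamatergic level was 25.2, 13.8 and 9.90 times higher in estrus, diestrus and male. Glutamatergic neurons held 151, 155 and 71 of the 158, 167 and 83 Cyp11a1 UMIs. The folds thus rest on few UMIs in the other types, carry no interval and are not compared between libraries. Within neurons the glutamatergic level exceeded the GABAergic level by 2.41 on the log2 scale (SE 0.51, adjusted p = 7.48e-04, edgeR, in 3 of 3 libraries). Only the glutamatergic side let Cyp11a1 through the filter, so this contrast, and the count that includes it, are also in part set by it. In that contrast 2 of 7 members were higher, where 20% of all genes were, and 0 were lower (12.7% of all genes; also 0 at an unadjusted p under 0.05 and 0 with DESeq2). The 4 glutamatergic markers kept out of the gate summed to 16.8% of their glutamatergic level in GABAergic neurons (3.80 to 29.7% for single markers) and the 6 gate markers to 4.69%, and Cyp11a1 stood at 20.6%. In astrocytes the markers kept out of the gate summed to 6.30%, and Cyp11a1 stood at 4.33%.

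Cyp11a1 UMIs were found in each glutamatergic subclass. Near-projecting neurons of layers L5/6 held 7.10, 4.37 and 2.72 CPM from 29 UMIs in all, and layer L5 extratelencephalic neurons 3.35, 2.30 and 2.24 CPM. Upper-layer intratelencephalic neurons (L2/3 IT) stood at 1.43, 1.96 and 2.60 CPM, a range that overlapped the L5 extratelencephalic values but not the near-projecting ones. Parvalbumin, Vip and Sncg interneurons had no UMI, but the whole GABAergic class held only 8, too few to tell its subclasses apart. A glutamatergic cell carried a Cyp11a1 UMI in 8.51% (7.16 to 10.0), 6.36% (5.34 to 7.50) and 3.13% (2.40 to 3.99) of cells at the 3 depths, and in 0.518%, 0.628% and 0.444% after thinning. Microglia, set beside them as a background type, had such a UMI in 0 of 3249 cells in estrus, which allows a share of up to 0.0923% of cells with a UMI, then in 0.121% and 0.0832%, at the lower median depths of 5320, 4473 and 3287 UMIs. These shares count cells with a UMI, not cells that express the gene. A non-coding gene, Gm17322, overlaps the start of Cyp11a1 on the same strand and was also mostly glutamatergic, at 5.27, 4.82 and 3.30 CPM, so reads in the shared stretch cannot be told apart here.

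Srd5a1 encodes steroid 5α-reductase type 1, which reduces progesterone, testosterone and related steroids, and lies at chr13:69573449-69611442 on the minus strand. Akr1c14 encodes the rodent 3α-hydroxysteroid dehydrogenase that takes the reduced steroids on to allopregnanolone and its relatives, and lies at chr13:4049011-4090688 on the plus strand. These successive enzymes were high in different types, and the 250 bases before their starts are shown to set them side by side. They come from RefSeq (GRCm38.p6), which held such a sequence for 5 of the 8 members. The windows are chr13:69611464-69611713 for Srd5a1, on the minus strand, and chr13:4059341-4059590 for Akr1c14, on the plus strand, where RefSeq's start lies inside the longer GENCODE gene. Capitals mark GGGCGG (the GC box), CCAAT and TATAAA on either strand.
Srd5a1: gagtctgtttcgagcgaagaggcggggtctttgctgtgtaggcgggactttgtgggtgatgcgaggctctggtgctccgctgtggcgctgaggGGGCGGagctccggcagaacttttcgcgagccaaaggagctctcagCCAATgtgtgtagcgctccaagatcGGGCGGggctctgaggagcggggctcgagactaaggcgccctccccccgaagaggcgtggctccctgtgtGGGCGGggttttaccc
Akr1c14: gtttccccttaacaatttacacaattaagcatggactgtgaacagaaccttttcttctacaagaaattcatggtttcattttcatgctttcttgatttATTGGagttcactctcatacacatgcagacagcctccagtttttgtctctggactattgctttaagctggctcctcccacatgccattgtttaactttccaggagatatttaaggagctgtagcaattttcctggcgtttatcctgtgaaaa
The Srd5a1 window had 64.8% G and C, 3 matches to GGGCGG and 1 to CCAAT. The Akr1c14 window had 38.8% G and C, no match to GGGCGG and 1 to CCAAT, and neither window had TATAAA. Of 32851 windows of that length in the table, 32.7% held GGGCGG, 33.8% CCAAT and 12.4% TATAAA. These letters describe the windows, and nothing about binding was measured.

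Of 5235 Srd5a1 UMIs in the 10 types, oligodendrocytes held 3645 and glutamatergic neurons 1185. By level, Srd5a1 was highest in oligodendrocytes. Its level in oligodendrocytes, the myelin-forming cells, was 56.8, 55.1 and 56.1 CPM (56.0 ± 0.87, SD, n = 3). Oligodendrocyte precursor cells followed at 10.3, 12.6 and 10.2 CPM. Glutamatergic neurons stood at 8.17, 7.02 and 9.63 CPM, and GABAergic neurons at 7.50, 6.58 and 5.79 CPM. The 3 oligodendrocyte values lay above every value of the other 9 types. The precursors did not overlap the glutamatergic neurons, whereas the 2 neuron classes overlapped each other. Astrocytes held 2.43, 4.16 and 4.33 CPM, endothelial cells 3.24, 3.47 and 3.55 CPM, and microglia 1.185, 1.503 and 2.283 CPM.

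Oligodendrocytes were above the mean of the other types by 4.06 on the log2 scale (SE 0.12, adjusted p = 1.08e-21, edgeR, in 3 of 3 libraries). Their precursors were higher by 0.97 (SE 0.26, adjusted p = 0.0025, edgeR) and glutamatergic neurons by 0.67 (SE 0.15, adjusted p = 6.07e-04, edgeR). The call in the precursors was lost without the diestrus library (0.85, adjusted p = 0.092, edgeR). Microglia (-1.83), vascular smooth muscle cells (-1.46), astrocytes (-0.57) and endothelial cells (-0.53) were lower, but the smooth muscle call was lost without the estrus library (adjusted p = 0.21, edgeR). The astrocyte call was lost without the estrus library (-0.26, adjusted p = 0.60, edgeR) or the diestrus library (-0.59, adjusted p = 0.19, edgeR), and so was the endothelial call (adjusted p = 0.16 and 0.32, edgeR). The glutamatergic minus GABAergic difference was 0.48 (SE 0.20, adjusted p = 0.064, edgeR) and became a call without the estrus library (0.55, adjusted p = 0.044, edgeR).

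Oligodendrocyte markers were set beside Srd5a1 in the other types. The 6 oligodendrocyte gate markers summed to 0.615% of their oligodendrocyte level in glutamatergic neurons (0.536 to 0.833% for single markers), and Srd5a1 stood at 14.4%. The corresponding values were 0.562% and 11.8% in GABAergic neurons, 1.10% and 6.26% in astrocytes and 1.40% and 2.71% in microglia. The 3 oligodendrocyte markers kept out of the gate summed to 0.699% in glutamatergic neurons, with single markers at up to 1.79%. Single ones reached 0.998% in GABAergic neurons, 2.97% in astrocytes and 2.08% in microglia. The gate left out cells with oligodendrocyte markers beside those of another type, so low levels of either marker set are in part set by it. The part of oligodendrocyte RNA in the Srd5a1 level of neurons and the other types was not tested. Within neurons, layer L6 IT cells held 14.7, 9.51 and 10.97 CPM and layer L2/3 IT cells 5.81, 5.36 and 7.06 CPM, and these did not overlap. Lamp5 interneurons held 19.8, 12.9 and 8.58 CPM from 21 UMIs in all, and Vip interneurons 4.53, 1.57 and 1.89 CPM from 4 UMIs.

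A Srd5a1 UMI was found in 35.9% (33.7 to 38.2), 35.0% (33.0 to 37.1) and 29.0% (27.5 to 30.4) of oligodendrocytes, and in 9.80%, 9.18% and 9.63% after thinning to 2000 UMIs. Microglia had 0.205%, 0.303% and 0.454% after thinning. Before thinning, 363 of 1527, 315 of 2060 and 264 of 1984 glutamatergic neurons, which were sequenced deeper, had such a UMI. Srd5a1 lies inside Nsun2, an RNA methyltransferase gene on the other strand, and the sources used here do not say whether counting used strand. Nsun2 was highest in neurons, at 64.5, 62.7 and 57.0 CPM in the glutamatergic and 45.4, 43.5 and 39.1 CPM in the GABAergic class. In oligodendrocytes it stood at 28.6, 29.6 and 33.2 CPM. The part of Nsun2 reads in the Srd5a1 levels, those of neurons included, was not tested. A non-coding gene, Gm17108, overlaps Srd5a1 on its own strand and was listed at 1.106, 1.096 and 1.971 CPM in oligodendrocytes and 1.114, 1.137 and 1.272 CPM in glutamatergic neurons, and reads in the shared stretch cannot be told apart here.

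Akr1c14 was highest in endothelial cells. Its level in endothelial cells was 39.5, 42.5 and 29.9 CPM (37.3 ± 6.57, SD, n = 3), and vascular smooth muscle cells followed at 13.7, 8.86 and 20.2 CPM from 19, 12 and 7 UMIs. No other type reached 2 CPM in any library. Endothelial cells held 1435 of 1561 UMIs (91.9%). Oligodendrocytes, where Srd5a1 was high, held 0.737, 0.524 and 0.466 CPM. Glutamatergic neurons held 0.287, 0.202 and 0.0909 CPM from 31 UMIs in all. Oligodendrocyte precursor cells and border macrophages had no UMI, which allows up to 0.781 and 3.32 CPM over the 3 libraries.

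Endothelial cells (adjusted p = 2.74e-18, edgeR) and vascular smooth muscle cells (adjusted p = 6.17e-09, edgeR) were above the mean of the other types in 3 of 3 libraries; the fitted differences rest in part on types with no UMI and are not given. Against the other types pooled the endothelial level was 78.4, 110 and 76.9 times higher. In vascular smooth muscle cells the 4 endothelial markers kept out of the gate summed to 1.32% of their endothelial level, and Akr1c14 stood at 31.7%. In oligodendrocytes the sum was 0.786% and Akr1c14 1.42%, and in glutamatergic neurons 0.558% and 0.543%. Among endothelial cells, those with arterial genes held 46.6, 52.9 and 36.5 CPM, those with capillary genes 47.2, 49.6 and 38.4 CPM, and those with venous genes 23.7, 20.7 and 10.7 CPM. Other Akr1c genes, close copies in the same cluster, averaged at most 2.18 CPM in any type, except Akr1c13 at 12.3 CPM in border macrophages. An annotated pseudogene, Gm18857, overlaps the start of Akr1c14 on the same strand, and reads shared with it or with the copies cannot be told apart here.

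Both transcripts were also counted in the same cells. Of 2971, 2451 and 1947 endothelial cells, 58, 40 and 21 had a Srd5a1 UMI, 594, 391 and 159 an Akr1c14 UMI, and 20, 8 and 2 a UMI of each. Of 1756, 2038 and 3702 oligodendrocytes, 631, 714 and 1072 had a Srd5a1 UMI, 10, 11 and 12 an Akr1c14 UMI, and 5, 3 and 5 a UMI of each. Of 1527, 2060 and 1984 glutamatergic neurons, 363, 315 and 264 had a Srd5a1 UMI, 16, 9 and 3 an Akr1c14 UMI, and 4, 2 and 1 a UMI of each. No association between them was tested. At this depth a missing UMI does not show that a transcript was absent.

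Cyp19a1, the aromatase gene at chr9:54165937-54268110 on the minus strand, was close to the limit of detection. The 10 types held 27 UMIs of it (9, 12 and 6 by library), and 20 of these were in glutamatergic neurons. The glutamatergic level was 0.118, 0.147 and 0.151 CPM from 7, 8 and 5 UMIs. In 5 of the types there was none; for astrocytes this allows up to 0.167 CPM over the 3 libraries. No test was made, and the levels of the other types could not be ordered.

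Hsd17b4 and Hsd17b10 were present in every type. Hsd17b4, the peroxisomal multifunctional enzyme that also oxidises estradiol, lies at chr18:50128201-50196269 on the plus strand. Its level was 97.7, 95.8 and 87.7 CPM in microglia, 87.5, 79.4 and 81.9 CPM in astrocytes and 86.6, 77.1 and 74.9 CPM in oligodendrocytes. Oligodendrocyte precursor cells stood at 63.7, 77.0 and 94.4 CPM, above microglia in the male library. Glutamatergic neurons were lowest, at 27.8, 29.4 and 32.5 CPM, beside GABAergic neurons at 29.1, 32.5 and 36.3 CPM. Both neuron classes lay below every value of the other 8 types, and each overlapped the other. Microglia were higher than the mean of the other types by 0.90 (SE 0.11), oligodendrocytes by 0.80 (SE 0.11) and astrocytes by 0.66 (SE 0.11). GABAergic neurons differed by -1.12 (SE 0.14) and glutamatergic neurons by -1.08 (SE 0.13). The largest adjusted p of these 5 calls was 1.499e-05 (edgeR), and each call held in all alternatives run. Oligodendrocyte precursor cells differed by 0.27 (SE 0.14, adjusted p = 0.098, edgeR) and were called higher in an alternative run. DESeq2 called 4 types higher, against 3 with edgeR.

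Hsd17b10, a mitochondrial enzyme that acts on steroids, isoleucine breakdown and, as part of a complex, mitochondrial RNA, lies at chrX:152001845-152004442 on the plus strand. Its level was 102, 75.7 and 85.7 CPM in oligodendrocytes, 92.5, 66.5 and 69.4 CPM in vascular smooth muscle cells and 72.1, 61.3 and 78.1 CPM in pericytes. Glutamatergic neurons stood at 50.8, 35.7 and 32.1 CPM and GABAergic neurons at 37.5, 27.4 and 29.8 CPM. Ranges overlapped between most neighbours in the order; only astrocytes and the oligodendrocyte precursors did not. Oligodendrocytes were higher than the mean of the other types by 1.11 (SE 0.08, adjusted p = 4.79e-12, edgeR) and vascular smooth muscle cells by 0.74 (SE 0.12, adjusted p = 3.40e-06, edgeR). Smaller calls were less stable: astrocytes were higher by 0.34 (SE 0.09), lost without the diestrus library (adjusted p = 0.089, edgeR), and pericytes by 0.31 (SE 0.12), lost without any 1 library (adjusted p of 0.089, 0.14 and 0.21 without estrus, diestrus and male, edgeR). Oligodendrocyte precursor cells differed by -0.34 (SE 0.12), lost without estrus (adjusted p = 0.17, edgeR) or diestrus (0.20) and without a scaling factor (-0.08, adjusted p = 0.70, edgeR). GABAergic neurons differed by -1.03 (SE 0.11), glutamatergic neurons by -0.50 (SE 0.10) and microglia by -0.48 (SE 0.10). Glutamatergic neurons exceeded GABAergic neurons by 0.48 (SE 0.13, adjusted p = 0.0039, edgeR, in 3 of 3 libraries), a call that was lost without the diestrus library (0.45, adjusted p = 0.18, edgeR), without the library as a block (0.49, adjusted p = 0.073, edgeR) and without a scaling factor (0.32, adjusted p = 0.078, edgeR).

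**Figure D3:**
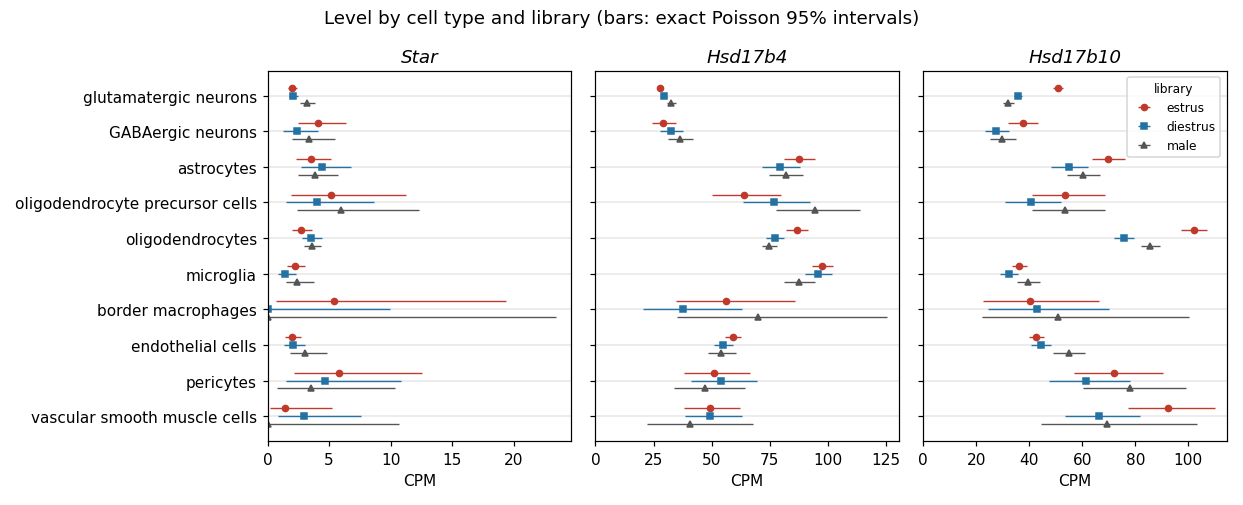
Level (CPM, linear axes from 0) of Star, Hsd17b4 and Hsd17b10 in 10 cell types, with 1 symbol for each library and exact Poisson 95% intervals. Star stays below 6 CPM in every library, Hsd17b4 is lowest in both neuron classes, and estrus lies above diestrus for Hsd17b10 in most types.

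**Figure D4:**
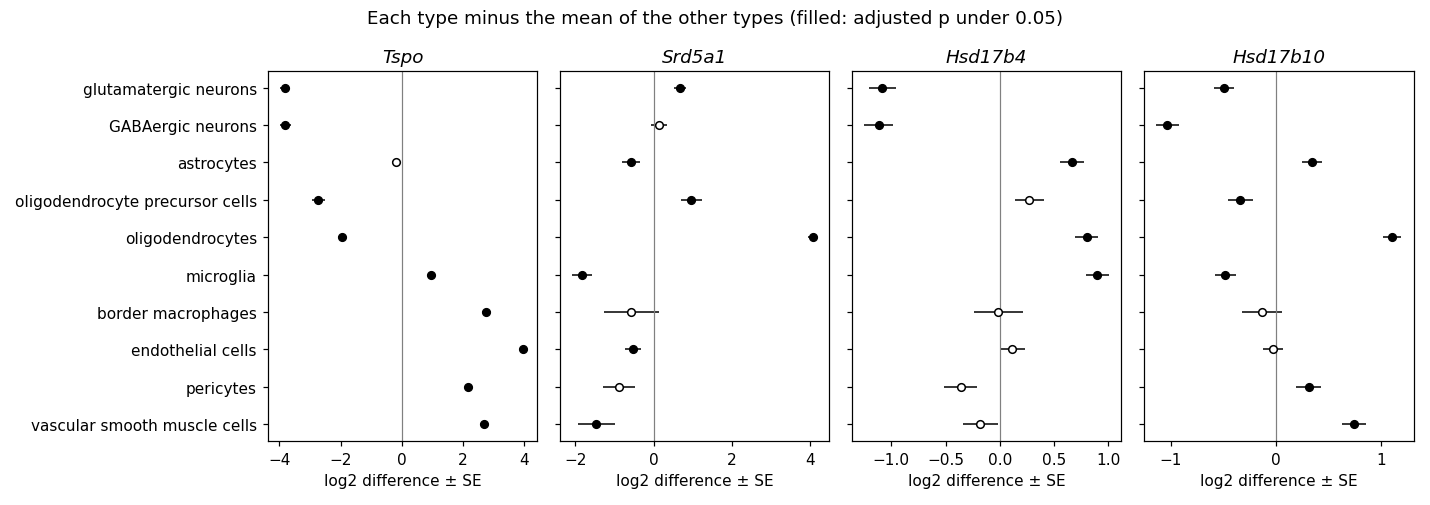
Difference of each type from the mean of the other types (log2, ± SE, edgeR) for the 4 members with UMIs in every type and a call in several of them, with filled symbols for an adjusted p under 0.05. Tspo spans from -3.83 to 3.95, and Srd5a1 stands out at 4.06 in oligodendrocytes.

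Genes with the most similar distribution over the 10 types were sought among the 12900 genes that averaged 5 CPM or more, by Pearson's r of log2 levels averaged over libraries; with 10 points these values are descriptions. For Srd5a1 they were Slain1 (r = 0.98), Ap2a1, Efnb3, Dip2a and Enpp2 (0.96), and for Akr1c14 Galnt15 (0.99), Wfdc1, Serpinb6b, Asb4 and Tinagl1 (0.96). For Tspo they were Itpripl2 (0.97), Fcgrt, Tcim, Sav1 and Trim56 (0.95), and for Cyp11a1 Nefl (0.98), Egr4, Hs3st2, Hpcal4 and Nptxr (0.97). Hsd17b4 was most like Pot1b (0.95), Hsd17b10 most like Snx33 (0.93) and Star most like Sema6d (0.93).

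Other genes listed for the pathway cover steps that the 8 members leave out, but many of them had too few UMIs to be tested. Among 9 listed genes of cholesterol delivery and TSPO partners, 8 were tested; 5 were higher in astrocytes (33.2% of all genes) and 5 in microglia (32.4%), and 6 were lower in pericytes (17.1%). Dbi, the gene of the diazepam-binding peptide that binds TSPO, was highest in oligodendrocyte precursor cells at 1712, 1823 and 2155 CPM (log2 difference 2.30, SE 0.10). The cholesterol carrier gene Npc2 stood at 575, 888 and 923 CPM in border macrophages, and Stard4, a sterol carrier gene, at 54.3, 70.7 and 49.5 CPM in endothelial cells. For electron transfer all 4 listed genes were tested and 3 were higher in astrocytes, where 33.2% of all genes were. Por, which passes electrons to microsomal cytochromes P450, reached 139, 154 and 168 CPM there, and Fdxr, which passes them through ferredoxin to CYP11A1, 31.6, 26.3 and 29.6 CPM. Fdx2 reached 140, 102 and 92.5 CPM in glutamatergic neurons.

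For the steps to progesterone and androgens only 3 of 11 listed genes passed the filter, Cyb5a, Cyb5b and Hsd3b7. The electron carrier Cyb5a reached 230.2, 285 and 261 CPM in border macrophages and Cyb5b 86.1, 94.6 and 84.8 CPM in endothelial cells. Hsd3b7, a bile acid pathway enzyme, reached 27.8, 28.1 and 26.7 CPM in endothelial cells. Of the genes that did not pass, Hsd3b1 had 5 UMIs, Hsd3b2 117, Hsd3b3 306, Cyp17a1 2 and Cyp21a1 0 UMIs over the 10 types. In the list of 5α and 3α reduction, 3 of 13 genes were tested. Srd5a3, a reductase with a main role in dolichol synthesis, reached 29.8, 30.2 and 30.1 CPM in microglia, Rdh5 48.1, 36.2 and 36.7 CPM in pericytes, and Akr1c13 13.4, 10.8 and 12.7 CPM in border macrophages; Srd5a2 had 24 UMIs in all.

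Among other 17β-hydroxysteroid dehydrogenases 3 of 8 genes were tested and all 3 were higher in both astrocytes (33.2% of all genes) and oligodendrocytes (31.1%). Hsd17b12 reached 188, 207 and 204 CPM in oligodendrocyte precursor cells, Hsd17b11 92.9, 105 and 106 CPM in microglia, and Hsd17b7, which also acts in cholesterol synthesis, 66.2, 40.5 and 48.1 CPM in astrocytes. Hsd11b1, which reactivates glucocorticoids, stood at 120, 88.8 and 112 CPM in astrocytes, and its cofactor supplier H6pd at 23.1, 28.8 and 23.7 CPM in pericytes. Of 5 genes of oxysterol formation and steroid hydroxylation, Cyp7b1, which hydroxylates pregnenolone and dehydroepiandrosterone, reached 148, 189 and 145 CPM in pericytes. Cyp46a1, the neuronal cholesterol 24-hydroxylase, reached 73.4, 74.5 and 82.2 CPM in glutamatergic neurons, Cyp27a1 102, 88.8 and 95.4 CPM in border macrophages, and Ch25h 3.71, 8.71 and 11.1 CPM in endothelial cells.

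Of 7 sulfation genes 6 were tested. Papss1 reached 261, 195 and 203 CPM in oligodendrocytes, Papss2 49.7, 51.4 and 52.9 CPM in astrocytes, Sult4a1 225, 191 and 165 CPM in glutamatergic neurons and Sult1a1 227, 108 and 172 CPM in border macrophages. Of 15 receptor genes 14 were tested, and 9 were higher in glutamatergic neurons, where 36.4% of all genes were. With so few genes in a list, these counts are not read further. The membrane progestin receptor genes differed by type: Paqr8 stood at 625, 544 and 385 CPM in astrocytes, and Paqr5 at 514, 365 and 281 CPM in endothelial cells. The membrane estrogen receptor gene Gper1 stood at 381, 355 and 388 CPM in pericytes, and Pgrmc1 at 488, 354 and 330 CPM in GABAergic neurons. Each of these other pathway genes named with its levels in a type was called higher there (largest adjusted p 2.99e-05, for Cyb5a in border macrophages, edgeR). The type was picked as the highest for that gene in these same data, so these calls are in part set by the choice and are not support.

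The groups of the study differ in cycle stage and sex, and the members were compared between libraries within each type. With 1 library per group there is no replicate check and no test; a ratio compares these libraries, and the 95% intervals (exact conditional binomial, on the ratio without the added CPM) cover counting error only. With at least 50 UMIs over the 2 libraries, 36 pairs of member and type could be compared for estrus over diestrus, 36 for estrus over male and 34 for diestrus over male. None passed 1.5-fold for estrus over diestrus, where 16.1% of all gene and type pairs did. For estrus over male 1 did, where 20% of all pairs did, and for diestrus over male none did, where 6.32% of all pairs did.

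The 1 ratio past 1.5-fold was Hsd17b10 in glutamatergic neurons. It stood at 50.8 CPM (Poisson 95% interval 49.0 to 52.6) in estrus, 35.7 CPM (34.1 to 37.3) in diestrus and 32.1 CPM (30.2 to 34.1) in male. The log2 ratio was 0.65 (0.56 to 0.77) for estrus over male and 0.50 (0.43 to 0.59) for estrus over diestrus. In glutamatergic neurons 14.1% of all genes passed 1.5-fold for estrus over male. The median depth per glutamatergic cell fell in the same order, from 38477 to 24116 and 11032 UMIs, and the median share of mitochondrially encoded UMIs rose, from 2.99% to 3.58% and 3.90%; their part in the difference was not tested. With cells of at least 2000 UMIs only, the ratio of estrus over male was 0.65. Within the 4 graph clusters that held at least 100 glutamatergic neurons of every library, a split added after the data were seen, the levels were 52.1, 41.4 and 34.1 CPM, 39.4, 33.9 and 32.2 CPM, 56.4, 35.9 and 38.1 CPM, and 42.6, 29.7 and 33.0 CPM. Estrus was the highest library in each of the 4. Estrus was also the highest in 6 of 7 glutamatergic subclasses (the other, L6b, had 0 UMIs in estrus, which allows up to 849.9 CPM), with 64.7, 54.1 and 32.8 CPM in layer L5 extratelencephalic neurons and 41.8, 28.9 and 30.5 CPM in layer L2/3 IT neurons. In other types Hsd17b10 was also above diestrus in estrus, by 0.43 (0.33 to 0.53) in oligodendrocytes and 0.44 (0.13 to 0.78) in GABAergic neurons, while in endothelial cells the ratio was -0.05 (-0.21 to 0.11), or 0.19 with scaling by trimmed means (TMM).

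Srd5a1 in oligodendrocytes differed little between libraries, with log2 ratios of 0.04 (-0.08 to 0.17) for estrus over diestrus, 0.02 (-0.10 to 0.14) for estrus over male and -0.02 (-0.14 to 0.09) for diestrus over male. In glutamatergic neurons its ratio was -0.41 (-0.67 to -0.24) for diestrus over male. The endothelial and microglial ratios that follow compare cells that lay mostly in different graph clusters by library, and the part of that in the ratios was not tested. Akr1c14 in endothelial cells had ratios of -0.10 (-0.27 to 0.06), 0.39 (0.16 to 0.65) and 0.49 (0.26 to 0.76) in the same order of pairs. The median of all genes in endothelial cells was itself -0.19 for estrus over diestrus and -0.22 for estrus over male. With TMM scaling the Akr1c14 ratios became 0.13, 0.74 and 0.61, so the first changed direction and the other 2 passed 1.5-fold. Endothelial Tspo had ratios of 0.26 (0.20 to 0.32), -0.09 (-0.16 to -0.02) and -0.35 (-0.43 to -0.28). With TMM scaling the first was 0.50, while the second turned to 0.27, so the direction of endothelial Tspo between estrus and male depended on the scaling. In the 2 clusters that held at least 100 endothelial cells of every library, Tspo stood at 978, 612 and 807 CPM and at 278, 275 and 362 CPM, and Akr1c14 at 44.7, 49.2 and 44.8 CPM and at 26.3, 40.8 and 34.2 CPM. The order of estrus and male for Tspo thus differed between these clusters, and estrus held only 5 Akr1c14 UMIs in the second. The 2 clusters held only 5.55% and 4.38% of the gated estrus endothelial cells. Microglial Tspo was lower in diestrus than in estrus (ratio of estrus over diestrus 0.36, 0.21 to 0.52) and than in male (ratio of diestrus over male -0.45, -0.64 to -0.28); for estrus over male it was -0.09, and 0.13 with TMM. In the 1 cluster that held at least 100 microglia of every library it stood at 72.0, 49.97 and 68.1 CPM, from 35, 229 and 179 UMIs. That cluster held only 3.57% of the gated estrus microglia. Cyp11a1 in glutamatergic neurons had ratios of -0.11 (-0.49 to 0.18), 0.17 (-0.17 to 0.67) and 0.29 (-0.01 to 0.83), each interval including 0.

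**Figure D5:**
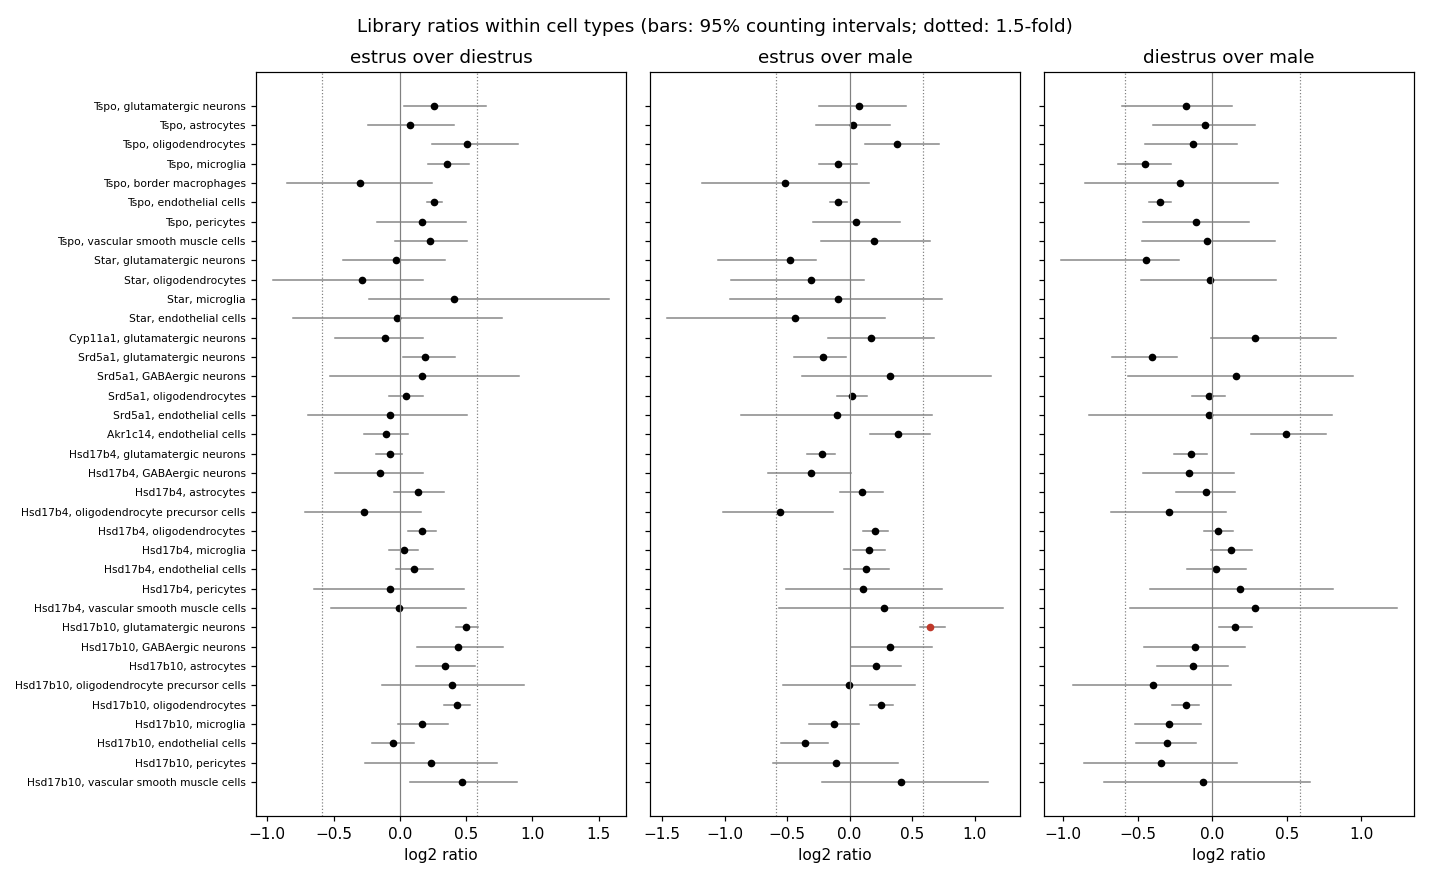
Log2 ratio between libraries within a cell type, for each pair of member and type with at least 50 UMIs over the compared libraries, with 95% counting intervals and dotted lines at 1.5-fold. The 1 point past the lines, in red, is Hsd17b10 in glutamatergic neurons for estrus over male at 0.65.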

How the data were processed

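Droplet single-cell RNA sequencing measured 3 libraries of mouse mPFC. The authors deposited raw UMI counts for each gene and barcode. Cell Ranger 3.0.2 and mm10 are named per the submitters' processing notes, but Cell Ranger 7.0.0 per the file headers. The sources used here do not give the annotation, the handling of introns and strand, or the cell calling. The libraries held 152291602, 144738154 and 115632520 UMIs in 14476, 18052 and 19555 barcodes, each of at least 500 UMIs.

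Barcodes with fewer than 500 genes or over 15% mitochondrial UMIs were removed. Each cell was scored on gate markers per type; it was gated at a top score of at least 0.3 and a lead of at least 0.2 over the second type, and cells with 50% or more haemoglobin UMIs were called erythroid. These gate settings were set after the data were seen. No doublet caller was run; the lead leaves out cells that carry markers of a second type. Ungated cells numbered 987, 3334 and 3513 (medians of 9002, 1051.5 and 1075 UMIs), and 387, 894 and 1090 cells lay within 0.05 of the lead required. Neuron subclasses used a lead of 0.15.

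Counts were summed per library and type and tested with edgeR 4.0.16 (R 4.3.3): filterByExpr, TMM factors, cell type plus library as a block, glmQLFit and glmQLFTest, and Benjamini-Hochberg adjustment over all genes and types together; the contrast of glutamatergic and GABAergic neurons was adjusted over genes. On simulated counts for oligodendrocytes against the other types, 18% of 1.5-fold, 72% of 2-fold, 98% of 4-fold and 100% of 8-fold changes were recovered, 50 genes each, with 0 calls among 16105 unchanged genes. The simulation gave all types and libraries the same profile apart from these changes, and all genes a single dispersion. The data differ from that, so these rates may not hold for them. Alternatives were DESeq2 1.42.0, RLE factors, no scaling, no filter, no block, each library left out, a lead of 0.4, and graph clusters (igraph 0.11.9). Levels within single clusters, and the use of markers kept out of the gate beside the members, were added after the data were seen. Library ratios carry 1 CPM added. Intervals are 95% and cover counting error only, and an upper limit for a count of 0 takes 3 counts. Coordinates are from GENCODE on mm10.

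The members and gene lists were chosen with earlier results of these data known. Besides the members, the text names in each list the 2 genes with the highest level. It also names the 2 with the largest difference between their top type and the others. The 5 genes most like a member were sought for members with at least 100 UMIs. All 5 are named for Tspo, Cyp11a1, Srd5a1 and Akr1c14, and only the first for Star, Hsd17b4 and Hsd17b10.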

Additional observations from a re-analysis of the deposited data

Results flagged for a closer look

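Types with fewer than 50 cells in some library took no part in the comparisons but held members above the limit of 3 counts; values are CPM over the libraries together, and no test was made. Tspo stood at 756 CPM in monocytes (69 UMIs), 561 in neutrophils (23 UMIs), 218 in B cells, 207 in fibroblast-like cells (262 UMIs), 205 in T cells, 79.0 in ependymal cells, 43.6 in neuroblasts and 2.66 in committed oligodendrocyte precursors (4 UMIs). Srd5a1 stood at 20.4 CPM in ependymal cells (15 UMIs), 17.3 in committed oligodendrocyte precursors (26 UMIs), which lie between precursors and oligodendrocytes in development, and 10.5 in neuroblasts (12 UMIs). Star stood at 4.65 CPM in committed oligodendrocyte precursors (7 UMIs). Hsd17b4 stood at 71.1 CPM in committed oligodendrocyte precursors, 61.6 in fibroblast-like cells, 55.8 in ependymal cells, 46.3 in neuroblasts, 43.9 in monocytes (4 UMIs) and 17.9 in T cells (4 UMIs). Hsd17b10 stood at 98.7 CPM in monocytes (9 UMIs), 74.3 in fibroblast-like cells, 57.6 in neuroblasts, 48.5 in committed oligodendrocyte precursors, 40.8 in ependymal cells, 34.1 in B cells (5 UMIs) and 26.8 in T cells (6 UMIs). All 71 ependymal cells came from the diestrus library. Akr1c14, Cyp11a1 and Cyp19a1 did not pass 3 UMIs in any of these types.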

How the results depend on the processing

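Among repeats of each member's difference between types under an alternative, 646 kept their direction and their side of the threshold, 19 became calls, 23 lost the call and 2 reversed. The reversals were Akr1c14 in astrocytes (-1.22) and in oligodendrocytes (-1.92) with graph clusters, both calls there and neither in the gated cells. Against 14 lower calls, graph clusters gave 22. With 1 library left out, the calls numbered 26 to 31 against 32, with 15 to 19 higher against 18 and 10 to 14 lower against 14; these counts include calls not made with all libraries. Without the library as a replicate block 29 calls were made. Cyp11a1 did not pass the low-count filter with the stricter gate. The glutamatergic against GABAergic comparison, with 2 calls, gave 1 without scaling, 1 without the replicate block, 1 with the stricter gate, and 1 to 3 with 1 library left out. Pairs past 1.5-fold numbered, for estrus over diestrus, 1 with TMM, 1 with 0.1 CPM added, 1 with graph clusters and 9 with no minimum of UMIs, against 0; for estrus over male 2, 3, 2 and 9, and 2 with the stricter gate, against 1; and for diestrus over male 1 with TMM, 1 with 0.1 CPM added and 6 with no minimum, against 0. Hsd17b10 in glutamatergic neurons passed 1.5-fold for estrus over male with TMM, 0.1 CPM added, the stricter gate, cells of at least 2000 UMIs and graph clusters. TMM moved 20 library ratios by more than their counting interval, and 616 repeats stayed within it. The causes were not tested. Thinning to 2000 UMIs lowered the mean share of cells with a UMI in the top type from 60.7 to 45.3% for Tspo, 3.32 to 0.970% for Star, 5.999 to 0.530% for Cyp11a1, 33.3 to 9.54% for Srd5a1, 14.7 to 7.67% for Akr1c14, 0.344 to 0.0338% for Cyp19a1, 31.2 to 16.3% for Hsd17b4 and 49.9 to 16.8% for Hsd17b10. Few UMIs limit Cyp19a1, Cyp11a1 and Star, and few cells (72, 93 and 63) limit the members other than Tspo in border macrophages.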
